A study of Mus musculus with 2 samples.

Results

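The Hedgehog pathway was examined through 9 genes, *Shh*, *Ptch1*, *Smo*, *Gli1*, *Gli2*, *Gli3*, *Sufu*, *Hhip* and *Gas1*, in DLX2 CUT&Tag peak lists of the mouse maxillary process. Peaks were collected that lay inside the annotated extent of each gene or within 100 kb of it, and for *Shh* also within 1 Mb. Where a replicate 1 peak and a replicate 2 peak overlapped by 1 bp or more, the overlapping stretch was counted as a shared region. The 100 kb windows held 24 shared regions, and 6 more lay within 1 Mb of *Shh*, which made 30 of the 10921 shared regions in the lists. The genes were 9 of 21779 protein-coding genes placed on chromosomes 1 to 19, X and Y.

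Both libraries came from maxillary process cells of wildtype C57BL/6 embryos at E12.5, and a DLX2 antibody was used in each. Replicate 1 listed 28061 peaks and replicate 2 listed 62093, with medians of 6 and 9 fragments at the summit as inferred from the deposited values. These lists are longer than those the study's own account rests on, and the threshold that separates them is not given in the sources used here, so every count of peaks or shared regions below holds for the deposited lists only. The labels do not say whether the replicates came from separate embryos or pools. No control library, other genotype or expression value was used here, so groups were not compared, the tissue label was not checked against marker genes, and no test between conditions was run.

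DLX2 is a homeodomain transcription factor of the branchial arch mesenchyme, and its family binds AT-rich sequences. Hedgehog signalling starts when a secreted ligand, of which Sonic hedgehog is the facial one, binds the receptor PTCH1 and frees the membrane protein SMO from inhibition. The signal then passes to the GLI zinc finger factors, which SUFU otherwise holds back. In the face, *Shh* is made in epithelium and is received by the mesenchyme beneath it, where the pathway is needed for outgrowth and for the palate.

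The start sites of the pathway genes were examined first. RefSeq promoter sequences, taken from 250 bases before to 50 bases after a start, were available for 7 of the 9 genes; *Shh* and *Gli1* had no entry. No peak of replicate 1, no peak of replicate 2 and no shared region met any of these 7 promoters. Among 21263 such promoters of protein-coding genes, 0.165% met a shared region, 0.837% met a replicate 1 peak and 2.9% met a replicate 2 peak, so a count of 0 among 7 was also the usual result for coding genes. The 250 bases before the start are shown for *Gas1*, whose start had a shared region closest to it, and for *Gli3* and *Sufu*, the members whose promoters held the homeodomain core TAAT. Capitals mark that core, which reads ATTA where it lies on the opposite strand.
Gas1 (chr13:60177536-60177785, GRCm38, minus strand): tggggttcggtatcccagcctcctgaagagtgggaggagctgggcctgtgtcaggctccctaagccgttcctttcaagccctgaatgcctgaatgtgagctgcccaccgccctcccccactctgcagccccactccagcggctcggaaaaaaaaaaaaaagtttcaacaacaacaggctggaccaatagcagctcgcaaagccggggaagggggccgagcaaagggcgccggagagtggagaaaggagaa
Gli3 (chr13:15463473-15463722, GRCm38, plus strand): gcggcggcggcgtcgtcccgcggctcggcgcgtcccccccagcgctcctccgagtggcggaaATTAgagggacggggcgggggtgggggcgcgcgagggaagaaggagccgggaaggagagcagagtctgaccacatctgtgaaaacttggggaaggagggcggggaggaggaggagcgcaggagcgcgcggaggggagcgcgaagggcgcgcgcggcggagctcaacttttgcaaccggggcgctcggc
Sufu (chr19:46396646-46396895, GRCm38, plus strand): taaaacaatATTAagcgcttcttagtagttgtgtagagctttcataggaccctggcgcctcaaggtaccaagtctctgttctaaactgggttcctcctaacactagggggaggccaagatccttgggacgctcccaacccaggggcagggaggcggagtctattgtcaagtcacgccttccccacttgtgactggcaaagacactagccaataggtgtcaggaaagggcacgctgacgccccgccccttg

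In *Gli3* the core began 188 bases before the start, and in *Sufu* it began 241 bases before it. The longer site TAATTA, which reads the same on both strands and contains overlapping copies of the core on each, was found in 0 of the 7 member promoters. Across all 32851 promoters of the same length, 5.29% held TAATTA and 58% held TAAT on either strand, against 2 of 7 members with TAAT. That set is wider than the 21263 promoters of protein-coding genes used above, and the shares among those alone were not computed. The 250 bases before the start were 58.8% G or C in *Gas1*, 72.8% in *Gli3* and 54.0% in *Sufu*, and up to 78.4% in *Ptch1*. Sequences of the peaks themselves were not analysed here.

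Peaks lay around each of the 9 genes in both replicates, as they did around 83% of protein-coding genes in replicate 1 and 91.7% in replicate 2, but their number varied widely. *Gli2* had the most, with 18 peaks in replicate 1 and 30 in replicate 2. *Gli3* had the fewest, with 1 peak in replicate 1 and 7 in replicate 2, and *Shh* was close to it with 1 and 8. The other counts ran from 4 in replicate 1 around *Gli1* to 21 in replicate 2 around *Sufu*. Replicate 2 held more peaks than replicate 1 around 7 of the genes, while *Smo* had 7 and *Hhip* 8 in both.

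Together the windows held 58 peaks in replicate 1 and 120 in replicate 2, a mean of 89 ± 43.8 (SD, n = 2). These were 0.207% and 0.193% of the respective lists. The windows followed the difference in list length, with a ratio of 2.07 between the replicates against 2.21 for the whole lists. A peak of the other replicate met 24 of the 58 replicate 1 peaks, or 41.4% (95% Wilson interval 29.6 to 54.2%), against 38.9% of the whole list. It met 24 of the 120 replicate 2 peaks, or 20% (interval 13.8 to 28.0%), against 17.2% of the whole list. The peaks around Hedgehog genes thus recurred at a share close to that of all peaks, within counting error.

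**Figure D1:**
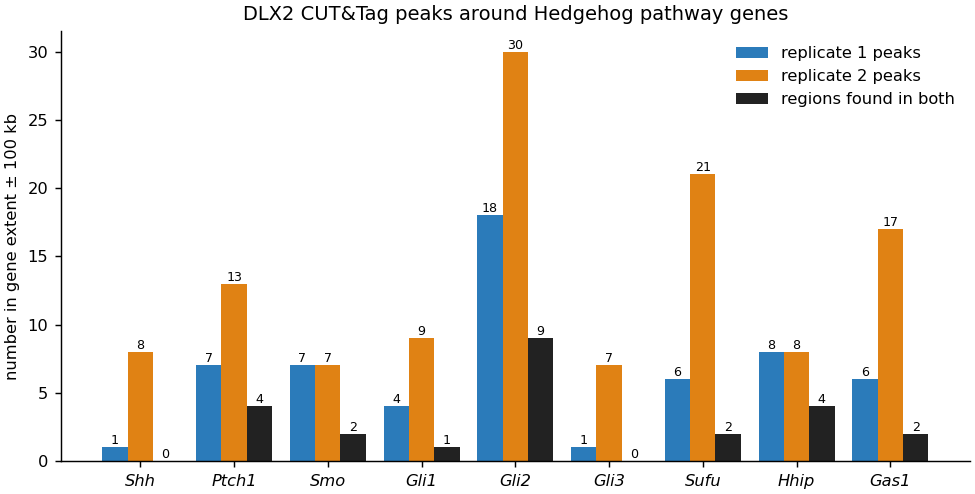
Number of replicate 1 peaks, replicate 2 peaks and shared regions in the window of each gene (gene extent and 100 kb to each side), with the number above each bar. *Gli2* is highest in all 3 counts, with 18, 30 and 9, and *Shh* and *Gli3* have 0 shared regions.

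A shared region lay in the window of 7 of the 9 genes, or 77.8% (95% Wilson interval 45.3 to 93.7%). The same was found for 60.2% of all protein-coding genes, which lies inside that interval. *Gli2* had 9 shared regions, *Ptch1* and *Hhip* had 4 each, *Smo*, *Sufu* and *Gas1* had 2 each and *Gli1* had 1. The median over the genes was 2, against 1 over all protein-coding genes. The members are longer genes, with a median length of 65.1 kb against 17.2 kb, so the number was also given per Mb.

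The member windows covered 2.59 Mb and held 9.28 shared regions per Mb, with an exact Poisson 95% interval of 5.94 to 13.8. The windows of all protein-coding genes together held 4.86 per Mb, so the density around the Hedgehog genes was 1.91 times as high. This rested in part on 1 gene. Without *Gli2*, 15 regions were left at 6.92 per Mb, and the interval of 3.88 to 11.4 then included the value of all windows. Regions within a window are not independent, and these intervals cover counting error only.

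**Figure D2:**
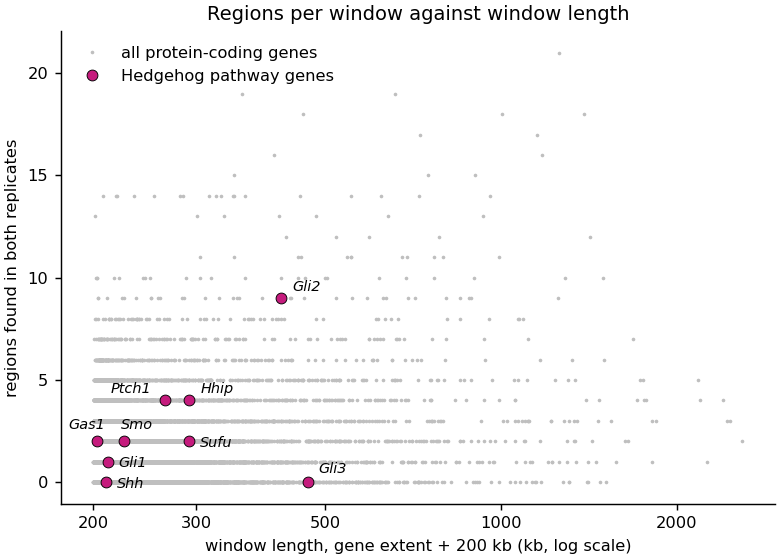
Number of shared regions in the window of each protein-coding gene (grey points) and of the 9 Hedgehog pathway genes (labelled) against the length of the window in kb on a log scale. *Gli2* lies at 9 regions in a window of 420.3 kb, whereas *Gli3* lies at 0 in a window of 466.3 kb.

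The ligand gene *Shh* had no shared region within 100 kb of its extent (chr5:28456840-28467101). A count of 0 allows up to 3 regions, or 14.3 per Mb of this short window, which is above the 4.86 per Mb of all windows, so the window is too small to set *Shh* apart. Replicate 1 had 1 peak there, 99.1 kb away with a fold enrichment of 3.37 and 4 fragments at the summit. Fold enrichment, as the peak caller gives it, sets the fragments piled up at a summit against a background value for that peak. That value is called local background here. The lowest value of each library, 0.387 fragments in replicate 1 and 1.10 in replicate 2, recurred at peaks on different chromosomes. Such a value is therefore not an estimate from nearby sequence. The 8 replicate 2 peaks began 2.70 kb from the gene, and the strongest, at chr5:28528844-28529274, had a fold of 7.09 and 18 fragments. Replicate 1 had no peak over 344.7 kb around *Shh*, a stretch in which replicate 2 had 11.

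*Shh* is known for enhancers that lie far from the gene, among them a limb enhancer in an intron of *Lmbr1*, so the window was widened to 1 Mb. It held 26 peaks in replicate 1 and 75 in replicate 2, a mean of 50.5 ± 34.6 (SD, n = 2), and 6 shared regions with an exact Poisson interval of 2.20 to 13.1. A shared region lay within 1 Mb of 93.6% of all protein-coding genes. The median gene had 10 such regions, and 27.4% of genes had fewer than *Shh*. By peaks of each replicate alone, *Shh* ranked near the middle, above 41.7% of genes in replicate 1 and 54.3% in replicate 2.

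Of the 6 distal regions, 3 lay on each side of *Shh*. On the side of lower coordinates, chr5:27587521-27587693 lay inside *Dpp6*, a potassium channel subunit gene, 869.1 kb away, and its folds were 5.31 in replicate 1 and 6.94 in replicate 2. It was followed by a region in a noncoding gene. This region, chr5:28063672-28063861, lay inside the lncRNA *Gm35223*, 393.0 kb away, with folds of 4.76 and 4.33. The third, chr5:28221324-28221485, lay inside *Cnpy1*, 235.4 kb away, with folds of 4.86 and 6.36. These regions therefore lay within other genes, with 6 or 7 fragments at the summit in replicate 1 and 11 to 14 in replicate 2.

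On the side of higher coordinates, chr5:28621801-28621866 lay inside the lncRNA *9530036O11Rik*, 154.7 kb away, with folds of 5.20 and 3.75. The region chr5:28795440-28795723 was the only intergenic one of the 6, at 328.3 kb, with folds of 6.89 and 5.38. The last, chr5:29445531-29445714, lay inside *Nom1*, 978.4 kb away, with folds of 4.20 and 4.75. The intergenic region was the strongest of the 6 by the replicate where its fold was lower, and that lower fold exceeded the one of 75.3% of all shared regions. *Lmbr1* held 2 peaks in replicate 1 and 3 in replicate 2, none of them shared, and *Rnf32* beside it held none in either.

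**Figure D3:**
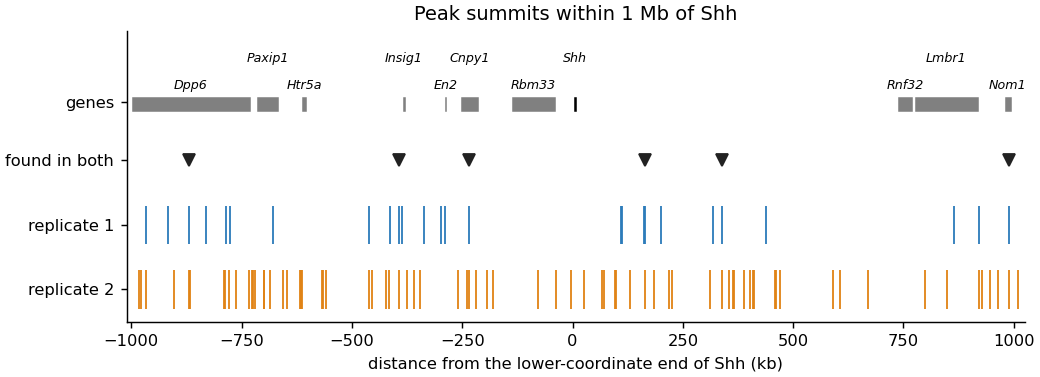
Peak summits of each replicate (vertical lines), shared regions (triangles) and protein-coding genes (boxes) within 1 Mb of *Shh*, by distance in kb from the lower-coordinate end of the gene. The 6 shared regions are spread over both sides, and the nearest lies 154.7 kb from *Shh*.

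The membrane proteins that receive the ligand came next. *Ptch1* (chr13:63508328-63573460) encodes the receptor and is itself a target of the pathway. It had 4 shared regions, and 9.4% of protein-coding genes had 4 or more. None of the 4 lay inside *Ptch1*, where replicate 1 had 0 peaks and replicate 2 had 3. The nearest shared region lay 28.2 kb upstream of the start site, measured here and for the other genes to the centre of the region.

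The *Ptch1* region chr13:63458714-63458832, 49.5 kb beyond the gene inside *Fancc*, a DNA repair gene, reached a fold of 6.49 in replicate 1 against 5.24 in replicate 2. On the other side, chr13:63593866-63593961 inside the lncRNA *LOC102632415* had folds of 4.73 and 4.63. Further out, the intergenic region chr13:63658213-63658307 had folds of 5.76 and 4.64. The lower folds of these 3 regions exceeded those of 52.9 to 71.8% of all shared regions. The strongest region of *Ptch1* was the most distant, chr13:63671898-63672130, 98.4 kb beyond the gene end between genes, with folds of 7.23 and 6.85 from 10 and 15 fragments. Its lower fold exceeded that of 92.7% of all shared regions.

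*Smo* (chr6:29735497-29761366) encodes the signal transducer that PTCH1 inhibits. It was 1 of 4 members that held a shared region inside the gene. That region, chr6:29748935-29749139, lay 13.5 kb downstream of the start, with folds of 5.27 and 4.72, and the annotated pseudogene *Gm13717* ended within 2 kb of it. It rested on 11 and 16 fragments over a local background of 1.28 and 2.60, more than the median background of 0.484 and 1.29 over all peaks of the lists, and the part of this background in the result was not tested. The other, chr6:29717377-29717424, lay 18.1 kb away near an end of *Tspan33*, with folds of 4.66 and 4.54. Among all protein-coding genes, 14.6% held a shared region inside the gene. The members are longer genes, with a median of 65.1 kb against 17.2 kb, so this share does not allow a direct comparison. Inside the member genes lay 10.2 shared regions per Mb, against 4.93 inside all protein-coding genes. The exact Poisson 95% interval of the former began at 4.39 and so included the latter.

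*Gas1* (chr13:60174405-60177535) encodes a membrane co-receptor that promotes Hedgehog signalling. It was the member with a shared region closest to its start. The region chr13:60179568-60179720 lay 2.03 kb beyond the gene on its start side, with a fold of 4.09 from 5 fragments in replicate 1 and of 7.79 from 17 fragments in replicate 2. The replicates thus differed in strength at this site, and their summits lay 171 bp apart. A second region, chr13:60096770-60097529, lay 76.9 kb from the gene inside the lncRNA *A530065N20Rik*, with folds of 7.44 and 8.15 from 15 and 31 fragments. At 760 bp it was longer than 99.8% of all shared regions, and the summits of the replicates were 506 bp apart. Its local background was 1.15 and 2.93, also more than the medians of 0.484 and 1.29 over all peaks, and the part of this was not tested.

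*Hhip* (chr8:79965850-80058060) encodes a ligand-binding antagonist that the pathway induces. Of the 8 peaks around it in each replicate, 4 overlapped a peak of the other. Of its 4 shared regions, 3 lay inside the gene, between 19.3 and 39.4 kb downstream of the start. They were chr8:80018536-80018733 with folds of 4.33 and 6.38, chr8:80027781-80027920 with folds of 5.05 and 5.71, and chr8:80038658-80038767 with folds of 4.18 and 5.24. All 3 had a higher fold in replicate 2 than in replicate 1, and 5 or 6 fragments in replicate 1 against 11 to 13 in replicate 2. The region chr8:80106737-80107036 lay 48.7 kb beyond the start-site end of the gene, with folds of 6.25 and 6.42, and its lower fold exceeded that of 88.1% of all shared regions. The median local background of the peaks around *Hhip* was 0.388 and 1.10, near the lowest of each library, 0.387 and 1.10.

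The GLI factors carry the signal to the genome, GLI2 mainly as activator and GLI3 mainly as repressor. *Gli2* (chr1:118834061-119054405) and *Gli3* (chr13:15463723-15730026) are long genes of similar size, 220.3 and 266.3 kb. They stood at opposite ends of the 9 genes and are set side by side for that reason, as a description. *Gli2* had 9 shared regions, or 21.4 per Mb (exact Poisson interval 9.79 to 40.6), and 0.519% of protein-coding genes had 9 or more. By density, which allows for the long window, it lay above 97.2% of protein-coding genes. *Gli3* had 0, whereas 60.2% of protein-coding genes had at least 1. A count of 0 allows up to 3, or 6.43 per Mb of this window. That is above the 4.86 per Mb of all windows, so the count of shared regions does not set *Gli3* apart from them. The limit of 3 is a rule for a count of 0, and the exact Poisson interval is wider. In this setting the exact intervals of the pair did not overlap, but they make no allowance for choosing the pair by its counts. That of *Gli2* began at 9.79 per Mb and that of *Gli3* ended at 7.91. Under 8 other filters, overlap rules and windows, they overlapped in all 8, though most of those settings counted fewer regions. A difference between the pair was not tested. *Gli2* also had more peaks in each replicate alone, 18 against 1 peak in replicate 1 and 30 against 7 in replicate 2. The local background of the peaks was also higher around *Gli2*, with medians of 0.738 and 1.79 fragments against 0.493 and 1.10 around *Gli3*; the part of this in the counts was not tested.

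Inside *Gli2* lay 3 shared regions, at 20.8, 54.7 and 163.4 kb downstream of the start. The first, chr1:119032765-119032791, had folds of 4.35 and 5.34, the second, chr1:118998863-118999006, had folds of 4.33 and 4.37, and the third, chr1:118890140-118890294, had folds of 4.36 and 3.57. All 3 had 7 fragments in replicate 1, the median of the 24 regions. The lower folds of the first and second exceeded those of 46.3 and 45.8% of all shared regions, and that of the third exceeded 11.3%. The first was a meeting of peak edges, since only 27 bp were shared and the summits lay 231 bp apart.

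The flanks of *Gli2* held 6 intergenic shared regions, 3 on each side. Upstream of the start, chr1:119142845-119143184, 88.4 kb from the gene, was the strongest of all 24 in replicate 1, with folds of 8.20 and 5.89 from 14 and 18 fragments and summits 8 bp apart. The others on that side were chr1:119078007-119078215, with folds of 3.36 and 3.83, and chr1:119101538-119101663, with folds of 4.92 and 3.49. In replicate 1 the upstream flank thus held both the highest and the lowest fold of the *Gli2* regions, and the lower fold of the weak one exceeded that of 5.64% of all shared regions. Downstream of the gene lay chr1:118806844-118807039 with folds of 5.30 and 4.98, chr1:118755449-118755694 with folds of 4.52 and 6.39, and chr1:118735586-118735922 with folds of 6.28 and 6.02. Of these 3, the farthest, 98.1 kb out, had the highest lower fold of all 9 *Gli2* regions, and the middle one had summits 512 bp apart.

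Although *Gli3* had no shared region, single replicates had peaks inside it. The only replicate 1 peak, chr13:15724817-15724937, had a fold of 4.02 from 5 fragments. Of the 7 replicate 2 peaks, 5 lay inside the gene, and the strongest, chr13:15489911-15490078, had a fold of 7.14 from 14 fragments, 26.2 kb downstream of the start. The shared region nearest to *Gli3* was 235.4 kb away.

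*Gli1* (chr10:127329882-127341579), which encodes the third GLI factor and is transcribed in response to the pathway, had 4 peaks in replicate 1 and 9 in replicate 2. A single one was shared, chr10:127243055-127243210, 86.7 kb away inside the kinesin gene *Kif5a*, with folds of 5.72 and 4.49. No peak of either replicate lay inside *Gli1*, and the nearest was 13.9 kb away in replicate 1 and 20.8 kb away in replicate 2. With 1 region, *Gli1* was at the median of all protein-coding genes.

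*Sufu* (chr19:46396896-46488804), the gene of the cytoplasmic inhibitor of GLI factors, held the longest shared region of the 24. It lay inside the gene at chr19:46441822-46442647, 45.3 kb downstream of the start, with folds of 7.27 and 7.26 from 16 and 26 fragments and both summits at the same base. At 826 bp it was longer than 99.8% of all shared regions, and its lower fold exceeded that of 94.9% of them. Its local background was 1.34 and 2.72, more than the medians of 0.484 and 1.29 over all peaks of the lists. The part of this background in the result was not tested. A second region, chr19:46582650-46582781, lay 93.8 kb beyond the gene inside *Sfxn2*, with folds of 5.36 and 4.49. The window of *Sufu* had 6 peaks in replicate 1 against 21 in replicate 2, the largest gap between the replicates among members with a shared region, with medians of 3.97 and 3.74 in fold.

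**Figure D4:**
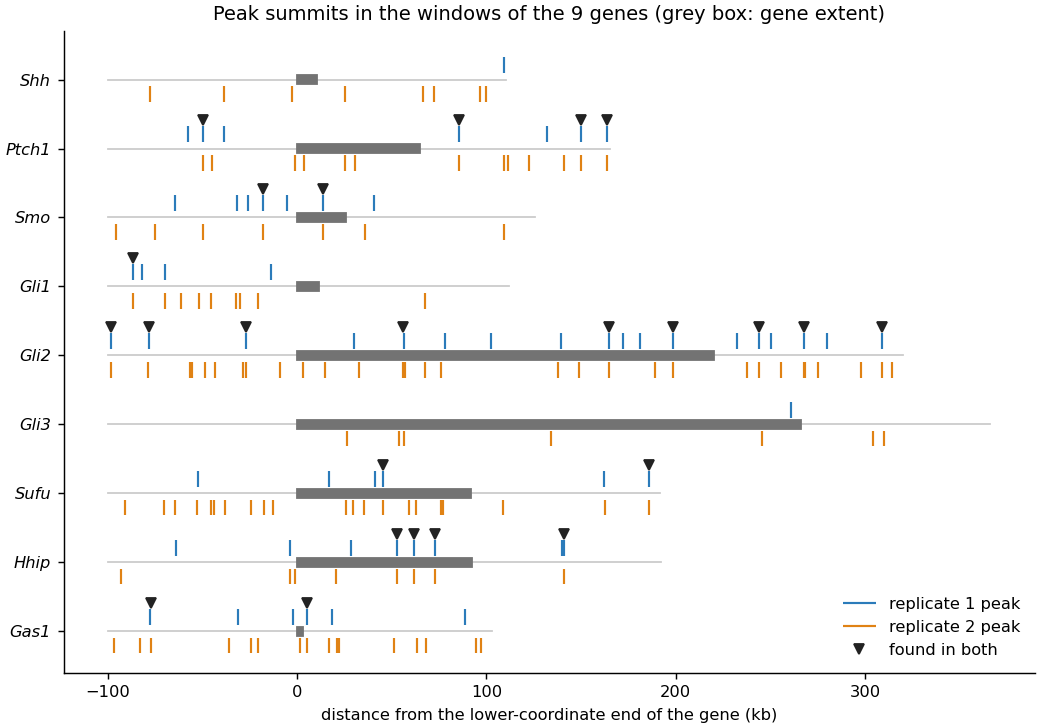
Peak summits of replicate 1 (blue lines above) and replicate 2 (orange lines below) and shared regions (triangles) in the window of each gene, by distance in kb from the lower-coordinate end of the gene; grey boxes are gene extents. Shared regions lie inside *Smo*, *Gli2*, *Sufu* and *Hhip*, and outside the gene in the windows of *Ptch1*, *Gli1* and *Gas1*.

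Taken by place, 8 of the 24 regions lay inside a Hedgehog gene, 6 inside another annotated gene and 10 in no gene. Only 2, both of *Smo*, lay within 2 kb of the end of any annotated gene, or 8.33% (95% Wilson interval 2.32 to 25.8%), against 16.1% of the shared regions in the windows of all protein-coding genes. The *Gas1* region 2.03 kb from its gene lay just outside this limit and was counted as intergenic. Gene bodies farther than 2 kb from an end held 12, or 50% (interval 31.4 to 68.6%), against 53.5%. Intergenic sequence held 10, or 41.7% (interval 24.5 to 61.2%), against 30.4%. All 3 background shares lay inside the intervals. Exons and introns were not told apart, since only gene extents were given.

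In strength the 24 regions were like the rest. Their median fold was 5.16 in replicate 1 and 5.24 in replicate 2, against 5.05 and 5.12 over all 10921 shared regions. The highest were 8.20 and 8.15, whereas the highest in the lists were 20.6 and 23.7. Of the 24, 14 had a lower fold above the median of all shared regions, and 4 reached a −log10 q of at least 5 in both replicates. These 4 were the inner *Sufu* region, the distant *Gas1* region, the farthest *Ptch1* region and the upstream *Gli2* region with 14 fragments in replicate 1. With that filter on all peaks, member windows held 1.55 shared regions per Mb, against 0.728 in the windows of all protein-coding genes. This was 2.125 times, near the 1.91 times without the filter. The 24 thus passed it at a share close to that of shared regions in those windows.

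**Figure D5:**
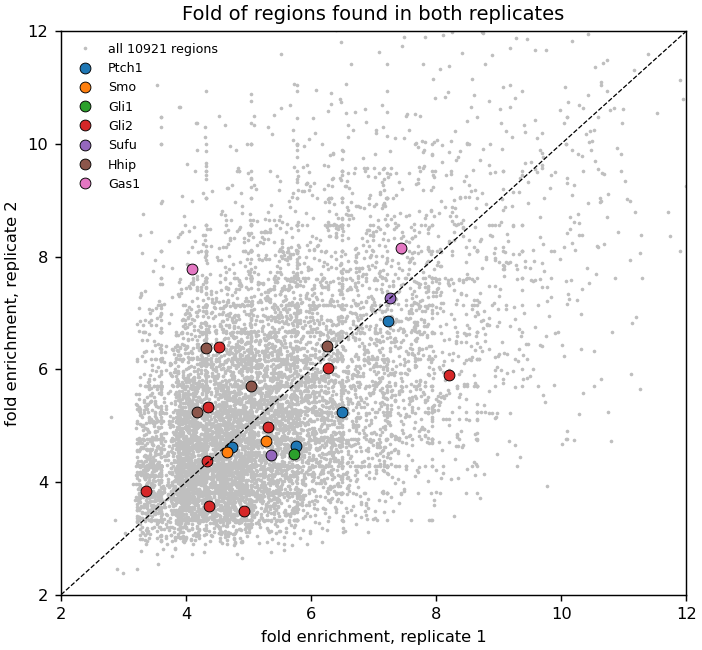
Fold enrichment of shared regions in replicate 1 (x axis) and replicate 2 (y axis), with all regions in grey, those of the Hedgehog pathway genes in colour and a dashed line where the folds are equal. Both axes end at 12, which leaves out 63 grey regions; the coloured points lie within the grey cloud, between 3.36 and 8.20 in replicate 1.

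Within the windows, peaks met by the other replicate were stronger than those that were not. In replicate 1, the 24 met peaks had a median of 7 fragments and a fold of 5.16, and the 34 others had 5 fragments and a fold of 4.18. In replicate 2, the 24 met peaks had a median of 13 fragments and a fold of 5.24, and the 96 others had 9 fragments and a fold of 4.07. The ranges overlapped, with unmet peaks of up to 18 fragments in replicate 2, such as the *Shh* peak with a fold of 7.09.

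Other genes of the pathway were then counted from a list of 27, made of further ligands, co-receptors, cilium proteins and GLI regulators. A shared region lay in the window of 18 of them, or 66.7% (95% Wilson interval 47.8 to 81.4%), against the 60.2% of all protein-coding genes. These 27 genes are also longer, with a median of 53.7 kb against 17.2 kb, so the density is given as well. Their windows held 51 shared regions at 6.86 per Mb (exact Poisson interval 5.11 to 9.02, counting error only), against 4.86 per Mb in the windows of all protein-coding genes. *Hhat*, which encodes the ligand acyltransferase, had 5, as did *Iqce*, a cilium gene, and *Spop*, a ubiquitin ligase adaptor. The co-receptor gene *Boc* had 4, as did *Btrc* and *Csnk1a1*, whose products mark GLI factors for processing. The ligand gene *Ihh* had 3 and *Dhh* had 0.

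A list of 16 genes known as Hedgehog targets, of which *Hhip*, *Ptch1* and *Gli1* are members, was counted in the same way. A shared region lay in the window of 13, or 81.2% (interval 57.0 to 93.4%), against the same 60.2%. The windows held 39 distinct regions at 11.8 per Mb (interval 8.38 to 16.1), against 4.86 per Mb in the windows of all protein-coding genes. The highest counts were those of the neighbouring forkhead genes *Foxc2* and *Foxl1*, with 10 each, and *Foxf1*, with 9, which drew on the same 12 regions. These 12, in a joint window of 246 kb, are among the 39, and the density without them was not computed. Both intervals take genes or regions as independent, which these neighbours are not. *Ccnd1*, a cyclin gene, had 6 and *Bcl2*, a survival gene, had 5. *Ccnd2*, *Nkx2-2* and *Tbx22* had 0.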

How the data were processed

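DLX2 CUT&Tag peak lists of 2 samples of 1 group were used, numbered in the order of their records. Per the labels, the submitters' processing notes name Trim Galore 0.4.5, Bowtie 1.1.2, MACS2 2.2.7 and the build mm10; the study's methods name bowtie2 and another Trim Galore version, and describe transposase tagging where the labels describe sonication. Peak calling settings are not given in the sources used here. The deposited score is the whole part of 10 times the −log10 q. The deposited fold is a ratio to a background value, at some peaks the lowest of the library. The deposited −log10 p and −log10 q are those of the peak caller, with no q above 0.1 in the lists.

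Fragments at summits and local background were inferred from fold and −log10 p, as fragments plus 1 over background plus 1 and a Poisson upper tail. Whole numbers came out for 100% of peaks within 0.001. Overlap counting and this inference were tested on simulated data. Genes were RefSeq extents of GRCm38.p6, without those placed below position 3000000 on chromosomes other than Y. Promoter sequences came from the RefSeq table of that build. Named were the 9 genes, every shared region around them, and in the other lists the genes with the most regions; *Ihh*, *Dhh* and genes at 0 in the target list were named after their values were seen. The members and lists were chosen with earlier results of these data known. Alternatives were stricter peaks, equal list lengths, other overlaps and windows, and each replicate alone. Counting ran in pandas 2.3.3 with numpy 2.4.6 under Python 3.11.15, intervals came from scipy 1.17.1, and plots from matplotlib 3.10.9.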

Additional observations from a re-analysis of the deposited data

How the results depend on the processing

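Of 55 alternative values of the main counts, densities and shares, 31 stayed within 1.5 times the count or within the interval of the value reported, and 24 did not. When peaks needed a −log10 q of 5 or more, there were 4 shared regions around 4 genes, or 1.55 per Mb. There was then 1 within 1 Mb of *Shh* and a mean of 10.5 peaks per replicate. Under that filter 14.9% of all protein-coding genes, which are shorter at the median, had a shared region in the window. When they needed a fold of 5 or more, the counts were 8 regions, 3.09 per Mb, 2 near *Shh* and 22 peaks. With 50% of each peak in common, there were 14 regions, 5.41 per Mb, and 3 near *Shh*. Windows of 20 kb held 10 regions, 80.0% of them inside a member, and a mean of 39 peaks; windows of 250 kb held 40 regions and 172 peaks. Without *Gli2*, an alternative chosen after seeing the data, 15 regions remained. These settings differ from the one reported by construction, in the peaks, genes or bases counted or in the overlap asked for.

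With 1 replicate left out, all peaks of the other counted. The windows then held 58 to 120 peaks at 22.4 to 46.4 per Mb, around 9 genes, with 28.3 to 31.0% inside a member, and 26 to 75 lay within 1 Mb of *Shh*. Of all protein-coding genes, 83 to 91.7% had such a peak in the window.

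Relative to the windows of all protein-coding genes under the same setting, the density stayed between 1.64 and 2.17 times in the 10 alternatives planned for it, and was 1.42 times without *Gli2*. The 9 regions of *Gli2* became 1 under the filter on q, 2 under that on fold, 4 with 50% in common, 7 with summits within 150 bp, 6 with lists of equal length, 6 in windows of 50 kb and 3 in windows of 20 kb, while *Gli3* had 0 in each. In windows of 250 kb they had 11 and 2. The exact Poisson intervals per Mb of the pair overlapped in all 8 of these settings, but not in the one reported. They make no allowance for choosing the pair by its counts. Overlap of intervals does not show that a difference is absent, and most of these settings counted fewer regions. A difference between the pair was not tested. No paired analysis was possible because both samples belong to 1 group. With 2 replicates, few fragments per peak and no control library, sites occupied by DLX2 cannot be told apart from background present in both libraries.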
